A study of Homo sapiens with 5 samples.

Results

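Centriole and centrosome genes were examined as a set of 50 genes, listed by symbol, and every intron of these genes was followed in 3 tables of intron retention. An intron was measured when its read depth plus its spliced reads reached 10 in both libraries of a table. By this rule 249 of the 33693 different introns measured in any table belonged to these genes. Of them, 110 were in the table for WBP11 RNAi, 157 in that for SNW1 RNAi and 182 in that for WBP11 auxin. At least 1 intron was measured in 45 of the genes, and in 31 of them in every table. The depth minimum left out 4, 3 and 1 listed introns, the nearest of them CEP72 intron 2 in the WBP11 RNAi table. The tables also leave out introns below a retention minimum, and of the 25 introns of CEP135, for example, 1 was measured. Shares and ranges below are therefore of listed introns only, in these genes and over all genes. No intron of POC1B, CEP89, CEP170, NINL or SSNA1 was listed.

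A centriole is a small cylinder of microtubules that is copied once per cell cycle, beside an existing centriole, and that later serves as the base of a cilium. Copying starts when the kinase PLK4 recruits STIL and SASS6, which build a cartwheel on which microtubules assemble. Centrioles gather a protein layer, the pericentriolar material, that nucleates microtubules and forms the poles of the mitotic spindle. WBP11 and SNW1 are both splicing factors of the spliceosome, and an intron that stays in a messenger RNA usually brings in a stop codon or shifts the reading frame.

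The 5 libraries came from DLD-1, a human colorectal adenocarcinoma cell line, with 1 library per group. Cells of the genotype DLD-1 LacZeo received no treatment in the labels, WBP11 siRNA at 100 nM for 72 h, or SNW1 siRNA at 100 nM for 72 h. The file headers call the untreated library a control RNAi, and whether it received a non-targeting siRNA was not stated. The auxin pair carries osTIR1, the plant auxin receptor, in the same background, and both libraries received 500 µM auxin for 48 h. Per the series' design text, the depleted cells of that pair lacked endogenous WBP11 and carried a WBP11 transgene with a degron tag, whereas the sample labels give both auxin libraries the same genotype. No degron library without auxin was analysed here, so differences of the line and depletion of WBP11 cannot be told apart in that pair. Per the series' title, the aim was to identify the introns that depletion of either factor leaves in transcripts.

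WBP11 itself had 20 spliced reads over its listed introns after WBP11 siRNA and 312 in the control, 6.75% of the control's share of all listed spliced reads. SNW1 had 31 after SNW1 siRNA and 401 in the control, 10.2% by the same measure. In the auxin pair, where the treatment targets the protein, WBP11 had 103 spliced reads in the depleted library and 235 in its control, and the protein was not measured in these data. In a bulk library, fewer cells with a transcript and less of it per cell cannot be told apart. Of 10 markers of colorectal epithelium, 3 or 4 had a listed intron in each table, while none of the 5 fibroblast and 4 leukocyte markers had any. A marker without a listed intron may still be expressed, since introns below the tables' retention minimum are left out.

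The value reported is the intron retention ratio, here in percent: the intron's read depth over that depth plus the reads spliced across it. Each group had 1 library, so no difference has a replicate check and no test between conditions was possible. An intron is called higher or lower when the ratios differ by at least 10 percentage points. Intervals are 95% Newcombe intervals of the difference and cover counting error only. Introns of 1 gene share their transcripts and are not independent of each other.

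Short introns led the rises after auxin, and 6 introns whose letters could be read from annotated transcripts are shown to let these cases be compared. Capitals mark the first 6 and last 3 bases, the intron's ends of the 5′ and 3′ splice sites. The letters are from GENCODE release 29 transcripts on hg38, each with an exon that spans the intron, and run 5′ to 3′ on the strand of the gene. CEP131 intron 25 (chr17:81189844-81189914, minus strand) and HAUS5 intron 16 (chr19:35620124-35620194, plus strand) had the 2 highest rises after auxin. HAUS5 intron 2 (chr19:35613793-35613867, plus strand) was higher after SNW1 siRNA and after auxin. SASS6 intron 9 (chr1:100107718-100107809, minus strand) was higher after either siRNA. PLK4 intron 3 (chr4:127883358-127883438, plus strand) is a short intron of a gene with no call, and CNTROB intron 11 (chr17:7944249-7944475, plus strand) was lower after WBP11 siRNA. All 6 lie between coding exons. Only CEP131 intron 25 and SASS6 intron 9 among them are marked in the data as overlapping an annotated exon, although such an exon spans each.
CEP131 intron 25: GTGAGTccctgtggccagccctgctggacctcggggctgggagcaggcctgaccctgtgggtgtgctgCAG
HAUS5 intron 16: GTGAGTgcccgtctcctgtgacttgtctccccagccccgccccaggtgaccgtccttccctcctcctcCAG
HAUS5 intron 2: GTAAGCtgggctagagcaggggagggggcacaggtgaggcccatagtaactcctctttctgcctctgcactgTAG
SASS6 intron 9: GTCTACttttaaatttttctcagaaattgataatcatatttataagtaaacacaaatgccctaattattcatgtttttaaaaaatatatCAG
PLK4 intron 3: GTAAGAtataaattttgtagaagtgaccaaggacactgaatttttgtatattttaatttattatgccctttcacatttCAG
CNTROB intron 11: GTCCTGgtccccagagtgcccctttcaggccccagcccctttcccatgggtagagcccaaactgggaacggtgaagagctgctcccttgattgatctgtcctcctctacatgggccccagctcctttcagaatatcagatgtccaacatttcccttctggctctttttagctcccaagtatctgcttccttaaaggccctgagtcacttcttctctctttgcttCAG

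The CEP131 intron is 71 bp long with 70.4% G and C, and the HAUS5 intron 16 is 71 bp long with 67.6%. SASS6 intron 9, at 92 bp, has 20.7% and PLK4 intron 3, at 81 bp, has 27.2%. The shown introns that were higher therefore lie at both ends of the base composition of the 18 member introns with a sequence, which ran from 20.7% to 70.4% with a median of 52.9%. Of these 18, 17 lie in coding sequence, and 15 of the 17 hold a stop codon in the reading frame that enters from the exon before. Counting from the first codon with an intron base, the stop is codon 2 in HAUS5 intron 2, codon 4 in SASS6 intron 9, codon 7 in HAUS5 intron 16 and codon 13 in PLK4 intron 3. CEP131 intron 25 has no in-frame stop. Of the shown introns, CEP131 intron 25 and HAUS5 intron 16 begin with the same 6 letters, and each of the others begins with different ones. All shown introns end in CAG except HAUS5 intron 2, which ends in TAG.

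As a set, these genes had close to the same share of raised introns as all genes in the tables. After WBP11 siRNA 10 of 110 introns in 7 genes were higher (9.09%), against 9.07% of the 16068 introns of all genes. After SNW1 siRNA 27 of 157 introns in 13 genes were higher (17.2%), against 16.6% of all 23366. After auxin depletion of WBP11 25 of 182 introns in 14 genes were higher (13.7%), against 13.8% of all 21828. Each of these shares is close to the background of its table, so the counts give no result about centrosome genes as a class.

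Falls were few. After WBP11 siRNA 2 introns were lower (1.69% of all introns), after SNW1 siRNA 0 (0.359% of all) and after auxin 1 (1.37% of all). The median difference of the member introns was 1.32, 2.89 and 1.37 points for WBP11 siRNA, SNW1 siRNA and auxin, beside 0.756, 2.63 and 1.45 points over all introns. Retention lay above the control in 64 of 110 member introns after WBP11 siRNA, in 141 of 157 after SNW1 siRNA and in 125 of 182 after auxin. The same shares over all introns were 59.6%, 91.3% and 72.8%. Introns below the retention minimum are not listed. A listed intron at 0% in the control can thus only lie above it, and a listed intron at 0% after depletion only below. The shares and medians therefore depend in part on the listing, in these genes and over all introns. Counting error limits many of the calls: the interval lay above 0 for 4 of 10 rises after WBP11 siRNA, 19 of 27 after SNW1 siRNA and 20 of 25 after auxin. Over all genes it lay above 0 for 1138 of 1457, 3216 of 3876 and 2479 of 3015 rises. Those rises were 7.08%, 13.8% and 11.4% of all introns measured. The median depth plus spliced reads of member introns in the depleted libraries was 58.7, 54.5 and 93.1, below the 101.4, 103 and 125 of all introns.

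**Figure D1:**
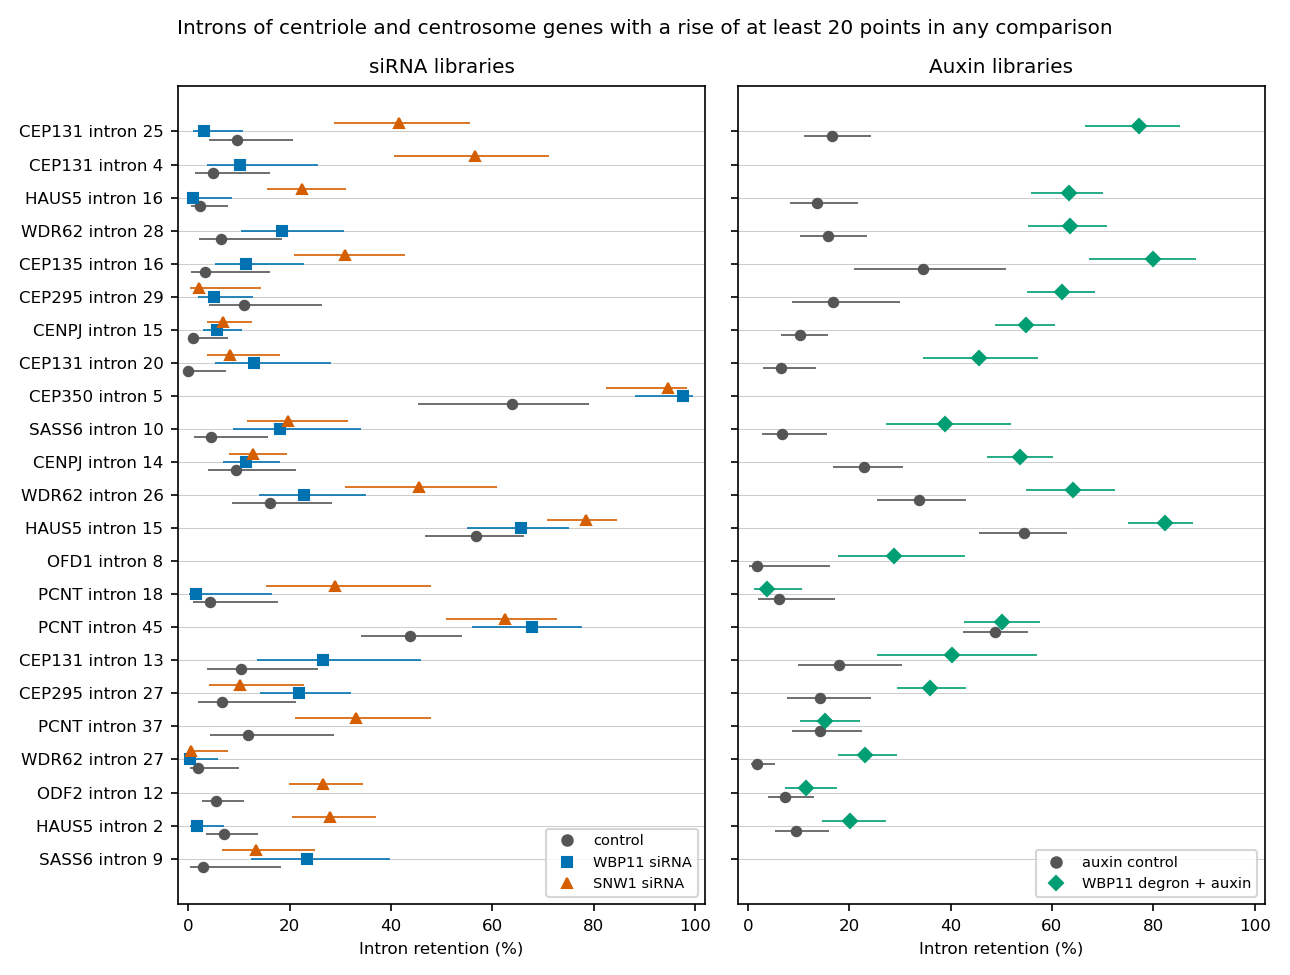
Intron retention in percent in each library for the introns of centriole and centrosome genes that were at least 20 points higher in any comparison, siRNA libraries on the left and auxin libraries on the right. Points are single libraries and bars are 95% Wilson intervals of counting error; CEP131 intron 25 stood at 77.2% after auxin depletion of WBP11 and at 3.17% after WBP11 siRNA.

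Among the genes that start a new centriole, SASS6, CEP135 and CENPJ had raised introns, while PLK4 did not. This group had 2 of 16 introns higher after WBP11 siRNA (12.5%, against 9.07% of all introns), 3 of 21 after SNW1 siRNA (14.3%, against 16.6%) and 4 of 25 after auxin (16%, against 13.8%), and none lower. SASS6 forms the spokes of the cartwheel, and its intron 10 (74 bp) was the single member intron higher in all 3 comparisons. The share of such introns over all genes is not given here. SASS6 intron 10 is described next. Its retention was 4.55% in the control, 18.2% after WBP11 siRNA and 19.7% after SNW1 siRNA. In the auxin pair it was 6.70% in the control and 38.9% after depletion of WBP11. Every depleted library thus lay above its control, by 13.7 points (interval -0.95 to 29.9), 15.2 points (1.35 to 27.5) and 32.2 points (17.5 to 45.9). Both RNAi differences use the same control library.

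SASS6 intron 9, whose sequence is shown above, was at 2.83% in the control, 23.4% after WBP11 siRNA and 13.5% after SNW1 siRNA. The interval of its 20.6-point rise after WBP11 siRNA was 1.51 to 37.2, and that of its 10.6-point rise after SNW1 siRNA was -6.30 to 22.5. The tables mark it as overlapping an annotated exon, whose own reads count as retention. The other SASS6 introns measured lay between -5.34 and 1.76 points and were not called.

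CEP135, a protein that links the cartwheel to the microtubule wall, had 1 measured intron, number 16 (73 bp, chr4:55999418-55999490). It was at 3.23% in the control, 11.3% after WBP11 siRNA and 30.8% after SNW1 siRNA. The auxin control was at 34.5% and the depleted library at 79.9%, a rise of 45.4 points (24.6 to 61.4). The control libraries themselves differed here by 31.3 points, the widest gap between them at any member intron measured in both the SNW1 RNAi and the auxin tables.

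CENPJ, a tubulin-binding regulator of centriole length, had raised introns in the auxin pair. Intron 15 (77 bp, chr13:24884084-24884160) was at 10.3% in the auxin control and 54.8% after depletion of WBP11, a rise of 44.5 points (36.3 to 51.4). Intron 14, also 77 bp and separated from it by a single exon, rose from 23.0% to 53.7%. After WBP11 siRNA the same introns differed from the control by 4.70 and 1.87 points, and after SNW1 siRNA by 5.88 and 3.28 points, with all 4 intervals including 0. CENPJ intron 12 was 9.92 points lower after auxin, just short of a call.

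PLK4, the kinase that triggers centriole copying, had 8 introns measured, and their differences ran from -3.52 to 7.30 points over the 3 tables. STIL, which binds SASS6 and PLK4, had 2 measured introns between 0.99 and 3.17 points. CEP152 and CEP192, the scaffolds that bring PLK4 to the centriole, stayed between -3.70 and 5.79 points over 3 and 5 introns. CEP63, the partner of CEP152, had 1 intron, 8.01 points higher after auxin.

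Of the genes of centriole assembly and length control, 2 of 23 introns were higher and 1 lower after WBP11 siRNA (8.70% and 4.35%, against 9.07% and 1.69% of all introns). After SNW1 siRNA 1 of 35 was higher (2.86%, against 16.6%) and after auxin 2 of 34 (5.88%, against 13.8%). The calls fell in CEP295, CEP350 and CNTROB. CEP295 is needed to turn a new centriole into a centrosome, and 2 of its last introns stood out. Intron 27 (88 bp) was at 6.67% in the control and 21.8% after WBP11 siRNA, and at 14.2% and 35.9% in the auxin pair. Its intervals were -1.44 to 26.5 points after WBP11 siRNA and 9.67 to 31.3 points after auxin. Intron 29 (82 bp, chr11:93730149-93730230, the last intron) rose from 16.8% to 62.0% in the auxin pair, by 45.2 points (30.4 to 55.5). After siRNA it was lower than the control's 10.9%, at 5.01% for WBP11 and 2.15% for SNW1, with both intervals including 0. It also overlaps an annotated exon.

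CEP350, a large centriole and microtubule protein, had the highest retention of all member introns in the RNAi control. Intron 5 of a short CEP350 transcript, in its 3′ UTR and overlapping an annotated exon, was at 63.9% in the control, 97.7% after WBP11 siRNA and 94.6% after SNW1 siRNA. These differences of 33.9 and 30.8 points rest on 10 spliced reads in the control against 1 and 2 after siRNA. CNTROB, a daughter centriole protein, had a fall: intron 11 was at 40.6% in the control and 29.1% after WBP11 siRNA, lower by 11.5 points with an interval that includes 0 (-25.2 to 2.73). The auxin libraries had it at 46.7% in the control and 54.7% after depletion.

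The remaining genes of this group had no call. CCP110, which caps the distal end, differed by -5.89 to 7.72 points over 3 introns. Differences of FGFR1OP, which anchors microtubules at the centrosome, ran from -3.71 to 2.30 points over 7 introns. RTTN, needed for full-length centrioles, had 4 introns between 1.16 and 5.996 points. POC1A and POC5, centriole wall proteins, stayed between -3.19 and 2.74 points. CEP97, which acts with CCP110, and CEP120 and SPICE1, which act in centriole growth, stayed between -2.31 and 5.22 points.

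In the pericentriolar material, PCNT, a scaffold of the layer, was raised after siRNA and WDR62, a spindle pole protein, in every table. The group had 2 of 26 introns higher and 1 lower after WBP11 siRNA (7.69% and 3.85%, against 9.07% and 1.69% of all introns). After SNW1 siRNA 4 of 28 were higher (14.3%, against 16.6%) and after auxin 4 of 41 (9.76%, against 13.8%). PCNT intron 45 (chr21:46443949-46444693), the last but 1 of 46, was at 43.8% in the control, 67.8% after WBP11 siRNA and 62.5% after SNW1 siRNA. With auxin it was at 48.8% in the control and 50.2% after depletion of WBP11. The rise after WBP11 siRNA was 24.0 points (8.35 to 37.8), and the difference in the auxin pair was 1.37 points (-8.56 to 11.3). After SNW1 siRNA, PCNT introns 18 and 37 were also higher, at 28.9% against 4.39% and 33.1% against 11.8%.

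WDR62 had up to 16 introns measured in a table, and its rises lay at introns 26 to 28 of 31. Intron 28 (81 bp, chr19:36103075-36103155) was at 6.53% in the control and 18.5% after WBP11 siRNA, with an interval from -2.41 to 24.9. In the auxin pair it was at 15.9% and 63.5%, a rise of 47.7 points (36.4 to 56.9). Intron 26, which overlaps an annotated exon, was at 16.2% in the control and 45.6% after SNW1 siRNA, and at 33.8% and 64.1% in the auxin pair. Intron 27 (96 bp) rose from 1.86% to 23.1% after auxin, and after WBP11 and SNW1 siRNA it was at 0.43% and 0.59% beside 1.89% in the control. Intron 6 was lower after WBP11 siRNA, at 1.48% against 13.0%. CDK5RAP2, which activates microtubule nucleation, had 1 call: its intron 36 was at 16.8% after auxin and 4.74% in the auxin control. AKAP9, an anchor for kinases, CEP57, a scaffold around the centriole, and NEDD1, which recruits gamma-tubulin, had no call and lay between -5.45 and 7.99 points.

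Of the genes of the appendages and of the linker between centrioles, 8 of 27 introns were higher after SNW1 siRNA (29.6%, against 16.6% of all introns), in 5 genes. After WBP11 siRNA 1 of 15 was higher (6.67%, against 9.07%) and after auxin 6 of 33 (18.2%, against 13.8%), and none was lower in any table. ODF2, a protein of the appendages, had 1 call: intron 12 (chr9:128484887-128485364) was at 5.52% in the control and 26.6% after SNW1 siRNA, higher by 21.0 points (12.4 to 29.6). CROCC, which forms the rootlet fibre, had 3 of 9 introns higher after SNW1 siRNA and 1 of 9 after auxin, intron 22, at 17.6% against 0%, each with an interval that includes 0. CNTRL, a protein of the mother centriole, had 2 of 4 introns higher after SNW1 siRNA, 1 of 1 after WBP11 siRNA and 2 of 3 after auxin, all 5 with intervals that include 0. Its intron 18 sat on the depth minimum in the auxin pair, with 10 spliced reads and no depth in the control. NIN intron 19 (109 bp) was at 12.2% after auxin and 0.07% in the auxin control, higher by 12.1 points (3.77 to 20.9). CEP164, which docks the mother centriole to the membrane, had 1 call after SNW1 siRNA and CEP250, a linker protein, 1 after SNW1 siRNA and 2 after auxin. Of the auxin calls of CEP250, that of intron 7, at 10.2 points, had an interval that includes 0 (-2.06 to 24.6).

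Among satellite and ciliary genes, CEP131 had raised introns in every table, and it held the largest rise of the whole set after SNW1 siRNA and after auxin. Shares per gene over all genes are not given here. The group had 3 of 15 introns higher after WBP11 siRNA (20%, against 9.07% of all introns), 4 of 24 after SNW1 siRNA (16.7%, against 16.6%) and 6 of 21 after auxin (28.6%, against 13.8%), with 1 lower after auxin. CEP131 is a protein of the centriolar satellites, granules that carry proteins to the centrosome and cilium, and 3 of its 11, 3 of its 13 and 4 of its 10 measured introns were higher. Intron 25 (chr17:81189844-81189914), the last of the gene, was at 9.62% in the control, 3.17% after WBP11 siRNA and 41.6% after SNW1 siRNA. In the auxin pair it was at 16.7% in the control, from a depth of 20 and 100 spliced reads, and at 77.2% after depletion of WBP11, from a depth of 57.7 and 17 spliced reads. The rise after auxin was 60.6 points (47.4 to 70.4), and the difference after WBP11 siRNA was -6.44 points (-17.7 to 2.97). The intron overlaps an annotated exon.

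CEP131 intron 4 (253 bp, chr17:81206872-81207124) was at 4.88% in the control, 10.3% after WBP11 siRNA and 56.5% after SNW1 siRNA. The rise after SNW1 siRNA was 51.7 points (32.2 to 66.7), while the difference after WBP11 siRNA had an interval of -7.65 to 21.1. Introns 13 and 20 were higher in both WBP11 comparisons. Intron 20 (83 bp) was at 0% in the control and 12.9% after WBP11 siRNA, and at 6.52% and 45.7% in the auxin pair. Intron 13 (656 bp) was at 10.4% and 26.7% with siRNA, and at 17.9% and 40.2% with auxin. Its intervals were -3.91 to 36.6 points with siRNA and 2.96 to 40.9 points with auxin.

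**Figure D2:**
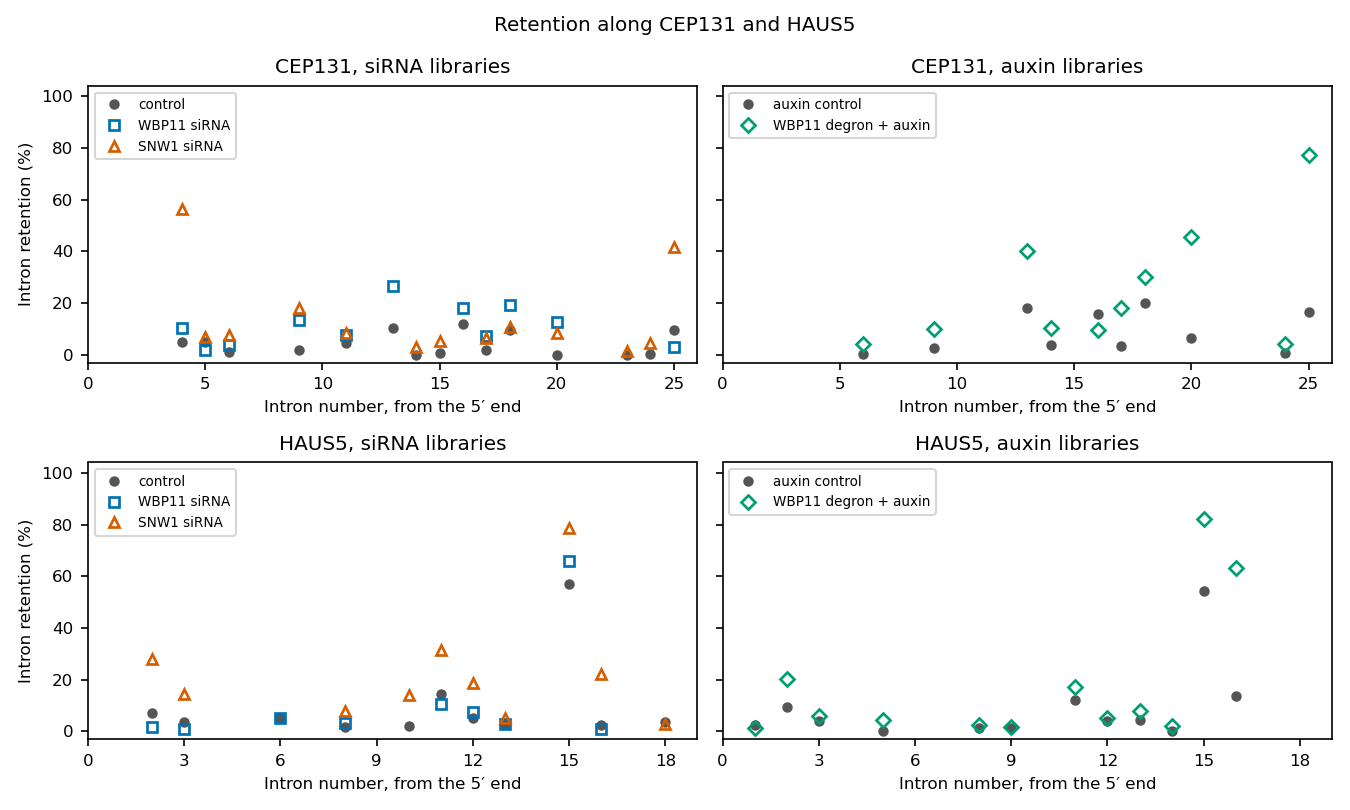
Intron retention in percent against intron number, counted from the 5′ end, for CEP131 and HAUS5, siRNA libraries on the left and auxin libraries on the right. Each point is 1 library; after auxin CEP131 intron 25 stands at 77.2% and HAUS5 intron 16 at 63.3%, while HAUS5 has 7 introns raised after SNW1 siRNA.

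OFD1, a protein of the distal centriole and satellites, had 1 rise after SNW1 siRNA, intron 20, at 31.9% against 15.2% with an interval of -3.32 to 36.5, and calls in both directions after auxin. Intron 8 was at 1.89% in the auxin control and 28.8% after depletion of WBP11, higher by 26.9 points (8.88 to 41.1). Intron 15 was at 12.3% and 0.77%, and its interval of -29.04 to -1.72 made it the only fall of the set that excluded 0. CEP72, another satellite protein, had 1 measured intron, higher by 16.6 points after auxin. PCM1, the scaffold of the satellites, had 4 introns and CEP290, a protein of the ciliary transition zone, had 3, with differences from -6.25 to 3.20 points and no call. CEP78 had 3 introns between -2.10 and 1.80 points.

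Augmin is the HAUS complex of 8 subunits that branches new microtubules off existing ones in the spindle, and its calls were all in HAUS5. No augmin intron of 15 was called after WBP11 siRNA, where 9.07% of all introns were higher. After SNW1 siRNA 7 of 22 were higher (31.8%, against 16.6%) and after auxin 3 of 27 (11.1%, against 13.8%). After SNW1 siRNA 7 of the 10 measured HAUS5 introns rose, and all 7 intervals lay above 0. Intron 2 was at 7.10% in the control, 1.70% after WBP11 siRNA and 28.0% after SNW1 siRNA, and at 9.43% and 20.2% in the auxin pair. Intron 16 was at 2.27% in the control, 0.96% after WBP11 siRNA and 22.4% after SNW1 siRNA, and at 13.7% and 63.3% in the auxin pair. The SNW1 rises of these introns were 20.9 points (10.8 to 30.6) and 20.1 points (11.2 to 28.97), and the auxin rise of intron 16 was 49.6 points (38.8 to 58.2). Intron 15, which is marked as overlapping an annotated exon, was already at 56.8% in the control. It reached 65.8% after WBP11 siRNA, 78.6% after SNW1 siRNA and, from 54.4%, 82.3% after auxin. Introns 2, 3 and 16 lack that mark, but an exon of an annotated transcript spans each, and its reads would count as retention.

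HAUS5 intron 3, at 10.6 points, was the rise just inside the call after SNW1 siRNA, and CDK5RAP2 intron 33, at 9.39 points, lay just outside it. After WBP11 siRNA CEP131 intron 9, at 11.3 points with an interval that includes 0 (-3.87 to 26.4), lay just inside. CEP131 intron 18, at 9.63 points, lay just outside. With only exactly spliced reads in the ratio, CEP131 intron 18 came to 20.8 points, past the call. After auxin CEP250 intron 7, at 10.2 points, lay just inside and CEP131 intron 18, at 9.69 points, just outside. CENPJ intron 12, at -9.92 points after auxin, lay just outside the call of a fall. The 6 other subunits in the set had no call in any table, and their differences ran from -4.18 points in HAUS3 to 5.08 points in HAUS4. CEP55, which acts in the midbody at the end of cell division, had 1 intron, 1.38 points higher after auxin.

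Most raised genes were raised at few introns. In the auxin pair 14 genes with a rise had 90 measured introns, of which 25 were higher, and 7 of the genes had a single rise. The same numbers were 41 introns and 10 rises in 7 genes after WBP11 siRNA, 5 of them with a single rise, and 74 introns and 27 rises in 13 genes after SNW1 siRNA, 7 of them with a single rise. SASS6, WDR62, CNTRL and CEP131 had a rise in every table, and 18 genes had a rise in any. Counts per gene are not given here for all genes, so those in this paragraph describe the set and are no trait of it. By contrast, 14 genes measured in every table had no rise: PLK4, CEP192, CCP110, CNTROB, POC1A, POC5, RTTN, FGFR1OP, AKAP9, CEP57, CEP78, HAUS3, HAUS4 and HAUS6.

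Intron length was not used to choose the genes, and its median was lower for the introns that rose, although lengths overlapped widely (71 to 4724 bp for the higher introns after auxin, 79 to 10922 bp for the others). Of the member introns up to 100 bp, 12 of 22 were higher after auxin (54.5%), against 39.2% of all introns of that length. After WBP11 siRNA 5 of 18 were higher (27.8%, against 16.4%), and after SNW1 siRNA 6 of 16 (37.5%, against 26.9%). Above 100 bp the shares were 13 of 160 after auxin (8.13%, against 8.69%), 5 of 92 after WBP11 siRNA (5.43%, against 7.67%) and 21 of 141 after SNW1 siRNA (14.9%, against 14.9%). The median length of the higher introns was 109 bp after auxin, 130.5 bp after WBP11 siRNA and 253 bp after SNW1 siRNA, and that of the others 878, 582 and 719 bp. Over all genes the same medians were 109, 175 and 224 bp for the higher introns and 616, 464 and 594 bp for the others, so all genes showed shorter medians for the higher introns too.

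**Figure D3:**
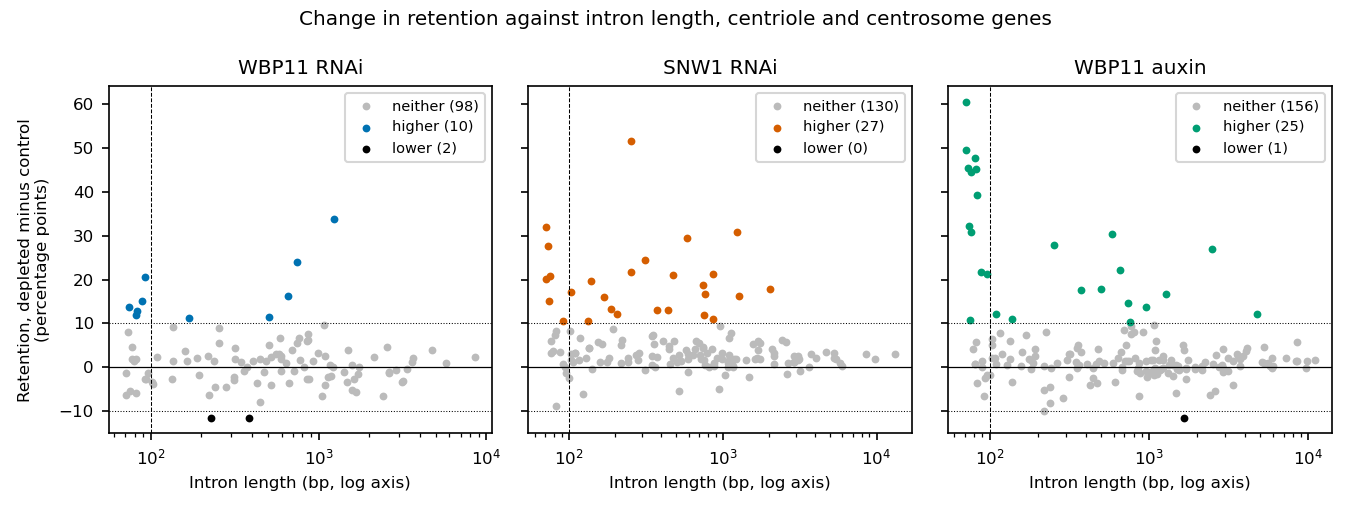
Difference in retention, depleted minus control in percentage points, against intron length on a log axis for the measured introns of centriole and centrosome genes in each comparison. Each point is 1 intron, colours mark calls of at least 10 points and the dashed line stands at 100 bp; after auxin, 12 of the 25 higher introns lie at or left of it.

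**Figure D4:**
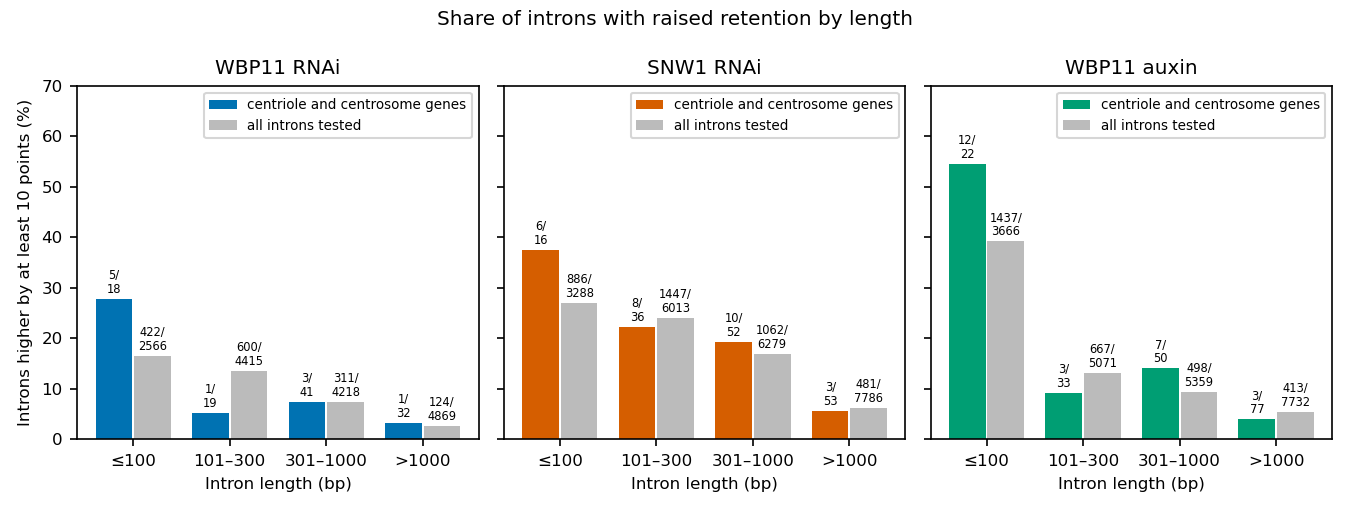
Percent of introns at least 10 points higher in 4 length classes, for centriole and centrosome genes in colour and for all measured introns in grey, with the counts above the bars. The share is highest up to 100 bp in each comparison, at 54.5% for the centrosome genes and 39.2% for all introns after auxin.

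The 9 highest rises after auxin were all in introns of 71 to 83 bp: 71 bp in CEP131 and HAUS5, 73 bp in CEP135, 74 bp in SASS6, 77 bp in CENPJ, and 81 to 83 bp in WDR62, CEP295 and CEP131. After SNW1 siRNA the highest rise was at 253 bp, in CEP131 intron 4. Of the member introns marked as overlapping an annotated exon, 4 of 5 were higher after auxin, 5 of 8 after SNW1 siRNA and 2 of 8 after WBP11 siRNA, beside 24.8%, 35.4% and 19.3% of all such introns. How much of that comes from reads of those exons was not tested. A length that is no multiple of 3 was found in 20 of 25 higher introns after auxin, 24 of 27 after SNW1 siRNA and 9 of 10 after WBP11 siRNA. Among the member introns that were not higher it was found in 109 of 157, 91 of 130 and 74 of 100, and among all higher introns in 68.7%, 67.5% and 67.4%.

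The WBP11 comparisons share no library, and 79 member introns were measured in both. Of these, 8 were higher after siRNA and 20 after auxin, and 6 were higher in both. That is 7.59% of the introns measured in both, against 6.96% of 10391 over all genes. The 6 make up 75% of those higher after siRNA and 30% of those higher after auxin, against 66.8% and 33.7% over all genes, so the overlap lay near the background. The 6 introns were CEP131 introns 13 and 20, SASS6 intron 10, CEP295 intron 27, WDR62 intron 28 and CNTRL intron 18. After WBP11 siRNA only CEP131 intron 20 had an interval above 0 (2.27 to 28.2), and the intervals of the others included 0. With auxin only that of CNTRL intron 18 included 0. No intron was called in opposite directions. CEP131 intron 25, HAUS5 intron 16 and CENPJ intron 15, which rose by 44.5 to 60.6 points after auxin, were at -6.44, -1.32 and 4.70 points after WBP11 siRNA. The treatments differ in cell line, agent and time, and the siRNA and auxin effects were not compared by a test.

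SNW1 siRNA and auxin depletion of WBP11 also share no library, and 98 member introns were measured in both. In each comparison 20 were higher, and 10 were higher in both, 10.2% of the introns measured in both against 8.86% of 13028 over all genes. The 10 are 50% of either list, against 42.0% of the SNW1 list and 51.8% of the auxin list over all genes. Among them were CEP131 intron 25, CEP135 intron 16, HAUS5 introns 2, 15 and 16, SASS6 intron 10 and WDR62 intron 26. The RNAi comparisons use the same control, identical at all 13412 introns they share, so their values are given side by side only. Of the 64 member introns measured in all 3 tables, 40 were higher in none and 1 in all, and the same shares over all genes are not given here.

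The control libraries differed from each other. Of the 98 introns measured in both the SNW1 and the auxin tables, the auxin control was at least 10 points higher at 6 and lower by as much at 0, and its median was 0.938 points higher. Of these 6, 4 also rose in the auxin pair: CEP135 intron 16 was at 3.23% in the RNAi control and 34.5% in the auxin control, WDR62 intron 26 at 16.2% and 33.8%, CENPJ intron 14 at 9.50% and 23.0% and HAUS5 intron 16 at 2.27% and 13.7%. The others were CENPJ intron 13, at 6.96% and 18.1%, and CEP131 intron 18, at 9.73% and 20.2%. Lines and treatment differ between these controls and cannot be told apart.

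Other genes of the pathway, on lists named apart from the set, were also measured. Of the genes of the gamma-tubulin ring complex, which nucleates microtubules at the centrosome, 6 of 37 introns were higher after WBP11 siRNA (16.2%, against 9.07% of all introns), 18 of 40 after SNW1 siRNA (45%, against 16.6%) and 8 of 42 after auxin (19.0%, against 13.8%). Most of these counts came from TUBGCP6, a subunit of that complex, with 4, 12 and 8 of the rises. The rest were in TUBG2, with 2 and 4 after WBP11 and SNW1 siRNA, and in TUBG1 and TUBGCP4, with 1 each after SNW1 siRNA. After auxin 1 intron was lower, TUBG2 intron 10, at 9% against 20.6%. TUBGCP6 had intron 20 at 6.40% in the control, 40.2% after WBP11 siRNA and 38.9% after SNW1 siRNA, and at 16.8% and 74.4% in the auxin pair. On a list of 61 further centrosome and basal body genes, 12 of 94 introns were higher and 3 lower after WBP11 siRNA (12.8% and 3.19%, against 9.07% and 1.69% of all introns). After SNW1 siRNA 28 of 144 were higher (19.4%, against 16.6%), and after auxin 20 of 138 were higher and 3 lower (14.5% and 2.17%, against 13.8% and 1.37%). Its leading rises were in SFI1, a partner of centrin, whose intron 26 went from 8.68% to 51.2% after WBP11 siRNA and intron 25 from 7.79% to 54.3% after SNW1 siRNA. After auxin the lead was CCDC14 intron 10, at 9.44% in the control and 57.6% after depletion of WBP11.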

How the data were processed

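PolyA RNA of DLD-1 cells was sequenced in 5 libraries, and 3 tables, each of 1 depleted and 1 control library, were deposited. Per the file headers, the authors compared introns with IRFinder on hg38 STAR alignments. RSEM, bedtools and hg38 are also named in the submitters' processing notes. Tool versions were not given in the labels or headers. Per the file headers, the retention ratio is a fraction, the intron depth a coverage signal over the measured bases of the intron, and the spliced reads a count. The authors' values carry no scaling by library size, which drops out of a ratio taken within an intron.

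Ratios were used as deposited and multiplied to percent. In 34 of 898 member values they differed by over 1 point from depth over depth plus spliced reads, and 1 of 65 calls would drop below 10 points with the recomputed ratio. All coordinates are hg38, counted from 1, and intron numbers, coding position and sequences are from GENCODE release 29. Sequences could be read for 18 introns, since no genome of this build was used here. Wilson and Newcombe 95% intervals used the sum of depth and spliced reads as n, although reads of 1 molecule are not independent. Calls were also run on simulated counts, drawn as independent reads at the same depths. Such counts hold no variation between libraries, so they are no check of differences between single libraries. Calculations used Python 3.11.15, numpy 2.4.6 and pandas 2.3.3.

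The members, lists and rules were chosen with earlier results of these data known. Introns named with values are the 12 largest rises and 5 largest falls per comparison, the largest rise per role, those higher in both WBP11 comparisons, those at the edge of a call or of the depth minimum, the 5 most retained in each control, and the genes with most calls. Other members and values were named after seeing them, to account for every gene. Alternatives were a 20-point call, a minimum of 30, introns marked as exonic or with a warning left out, exactly spliced reads, and centring.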

Additional observations from a re-analysis of the deposited data

How the results depend on the processing

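The counts of calls moved with the size of a call, the depth minimum and the warnings that IRFinder gives, such as uneven coverage. With a 20-point call, 3 introns were higher and 0 lower after WBP11 siRNA, 11 higher after SNW1 siRNA, and 15 higher and 0 lower after auxin, against 10, 2, 27, 25 and 1 at 10 points. Of all introns, 3.53%, 6.49% and 6.38% were higher by 20 points, and 0.349% and 0.275% were lower after WBP11 siRNA and auxin. With a minimum of 30, which left 85, 123 and 152 introns, 5 were higher and 1 lower after WBP11 siRNA. After SNW1 siRNA 16 were higher, and after auxin 21 were higher and 0 lower. Of all introns at that minimum, 7.39%, 14.3% and 12.9% were higher, and 1.08% and 0.942% were lower after WBP11 siRNA and auxin. Without introns that carry a warning in either library, which left 56, 75 and 69, 3 were higher and 0 lower after WBP11 siRNA, 10 higher after SNW1 siRNA, and 11 higher and 0 lower after auxin. Of all introns without a warning, 8.96% were higher and 1.44% lower after WBP11 siRNA, and 16.6% were higher after SNW1 siRNA. The shares after auxin are not given here. Fewer introns entered both of these settings. With differences centred on the median of all introns, 1 was lower after SNW1 siRNA (0.612% of all introns). After auxin 2 were lower, and the share over all introns is not given here. In the auxin pair CENPJ intron 12 came to -11.4 points. The centred median difference was 0.262 points after SNW1 siRNA and turned to -0.0824 points after auxin.

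Leaving out introns marked as overlapping an exon gave 8, 22 and 21 higher, and exactly spliced reads gave 12, 29 and 28. With exactly spliced reads, the differences of the named introns stayed within their own intervals in all 51 values. The same held for 51 values with centring, which only takes 1 constant off every difference of a comparison. A filter cannot change the difference of an intron that it keeps, so the filters are no check of these values. They kept 37 values with a minimum of 30, 40 without exonic introns and 18 without warnings. No paired analysis was possible because each group had 1 library. Among introns at the edge of a call, CEP131 intron 18 rose to 20.8 points after WBP11 siRNA with exactly spliced reads, and with centring HAUS5 intron 3 came to 7.96 points after SNW1 siRNA and CEP250 intron 7 to 8.74 points after auxin. The median depth plus spliced reads of member introns in the depleted libraries was 58.7, 54.5 and 93.1, and no detection limit was computed. At these depths some differences past 10 points had intervals that include 0. Some smaller ones did not, such as CDK5RAP2 intron 33 after SNW1 siRNA (9.39 points, 0.27 to 20.7).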
